A study of Mus musculus with 34 samples.

Results

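The comparison described here is that of monocyte-repopulated with irradiated control hippocampus, 4 GFP-BM REPOP against 4 GFP-BM CON libraries, chosen by region and treatment labels as 8 of the 34 libraries of the study. Gene expression was measured by RNA sequencing of cortex, hippocampus and thalamus with striatum, each microdissected from male C57BL/6 mice. Both groups received 1000 cGy of whole-body irradiation at 4 months of age, with the head in the field, and were then transplanted with bone marrow from donors that carry EGFP under the ubiquitous CAG promoter. GFP-BM REPOP mice were also fed the CSF1R inhibitor PLX3397 at 600 ppm in chow for 14 days, starting 3.5 months after irradiation, and were given 6 months on plain diet. GFP-BM CON mice received no inhibitor, and tissue of both groups was taken about 10 months after irradiation. The 4 WT CON hippocampus libraries, from mice with neither irradiation, transplant nor inhibitor, are given as a background level. Irradiation and transplantation are thus shared by the groups compared, which differ in the inhibitor and in the myeloid cells that returned after it. The paper reports donor-derived myeloid cells in GFP-BM CON brains as well, as a smaller part of the myeloid cells than in GFP-BM REPOP.

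Microglia are the resident macrophages of the brain, arise from the yolk sac and depend on signalling through the receptor CSF1R. Blocking this receptor empties the brain of most of its microglia, and after head irradiation the surviving microglia fill the space poorly, so that monocytes from the blood enter and become long-lived macrophages. Such bone marrow-derived cells take on much of the look of microglia but carry their own transcripts, among them *Ms4a7*, *Apobec1* and *Lyz2*, and have low levels of genes such as *Siglech*, *Crybb1* and *Slc2a5* that mark yolk sac-derived microglia.

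Values are FPKM, fragments per kilobase of transcript scaled to the mapped reads of each library, and a log2 difference is GFP-BM REPOP minus GFP-BM CON on the scale of log2(FPKM + 0.1). A total of 13852 genes reached 1 FPKM in at least 3 of the 12 hippocampus libraries and were tested with limma-trend. Differentially expressed genes (DEGs) had a Benjamini-Hochberg adjusted p under 0.05. The 12 libraries held 17085018 to 24932322 reads assigned to genes, as recovered from the steps between FPKM values. The spread within groups was wide in this region, with a median SD of 0.28 on the log2 scale against 0.11 in cortex and 0.22 in thalamus.

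Several libraries stood apart from their tissue label. Scores were taken as the mean log2(FPKM + 0.1) over the tested markers of a tissue. Markers of hippocampal neurons, such as the dentate gyrus transcription factor *Prox1*, scored 3.36, 3.53, 3.38 and 2.69 in GFP-BM CON libraries 1 to 4. In GFP-BM REPOP libraries 1 to 4 they scored 0.60, 2.47, 2.76 and 1.27. Libraries 1 and 4 of GFP-BM REPOP thus scored close to WT CON cortex, at 0.94 to 1.01, in these markers. WT CON hippocampus library 2 was below that range at 0.38, where the other WT CON hippocampus libraries scored 2.59 to 3.54. A low score does not name the tissue that was there instead. *Eomes* had 13 FPKM in GFP-BM REPOP library 1, 17 FPKM in WT CON library 2 and 0 to 1.63 FPKM in the other hippocampus libraries. Its mean in WT CON cortex was 0.0582 FPKM. *Calb2* had 116 and 227 FPKM in the same libraries and 4.86 to 56.1 FPKM in the others. The source of these transcripts was not tested. *Iyd*, a deiodinase used here as a hippocampal marker, had 5.17, 4.79, 2.59 and 7.71 FPKM in GFP-BM CON against 0.00, 0.897, 0.875 and 1.47 in GFP-BM REPOP libraries.

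Neocortex neuron markers went the other way. They scored 2.30, 2.34, 2.83 and 2.41 in GFP-BM CON and 3.57, 3.49, 3.15 and 3.38 in GFP-BM REPOP libraries, so that the groups did not overlap, with 3.90 to 4.04 in WT CON cortex. The 3 neocortex markers with at least 4 times the level in WT CON cortex, used as 1 measure, placed each library on a linear scale where 0% is the WT CON hippocampus and 100% the WT CON cortex. GFP-BM CON libraries stood at 8.68% ± 7.83 (SD, n = 4) and GFP-BM REPOP libraries at 25.5% ± 13.2 (SD, n = 4), the latter between 6.18% in library 3 and 34.3% in library 2. Striatum neuron markers set 1 library apart, with scores of 2.19, 2.33 and 3.32 in GFP-BM REPOP libraries 3, 1 and 2 and 6.76 in library 4, against 2.59 to 2.80 in GFP-BM CON and 1.89 to 5.23 in WT CON.

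Choroid plexus, the epithelium that secretes cerebrospinal fluid, separated the GFP-BM CON libraries from one another. *Ttr*, the transthyretin gene that this epithelium transcribes at very high level, had 41.6, 1090, 4790 and 6200 FPKM in GFP-BM CON libraries 1 to 4. The corresponding GFP-BM REPOP libraries had 73.0, 277, 161 and 250 FPKM. The score over 16 choroid plexus markers was -0.75, 2.59, 4.26 and 4.60 in GFP-BM CON and 0.09 to 0.77 in GFP-BM REPOP. In whole tissue, fewer cells of a type and less RNA per cell cannot be told apart, and the part that tissue content has in the differences given below was not tested beyond the values given beside them.

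**Figure D1:**
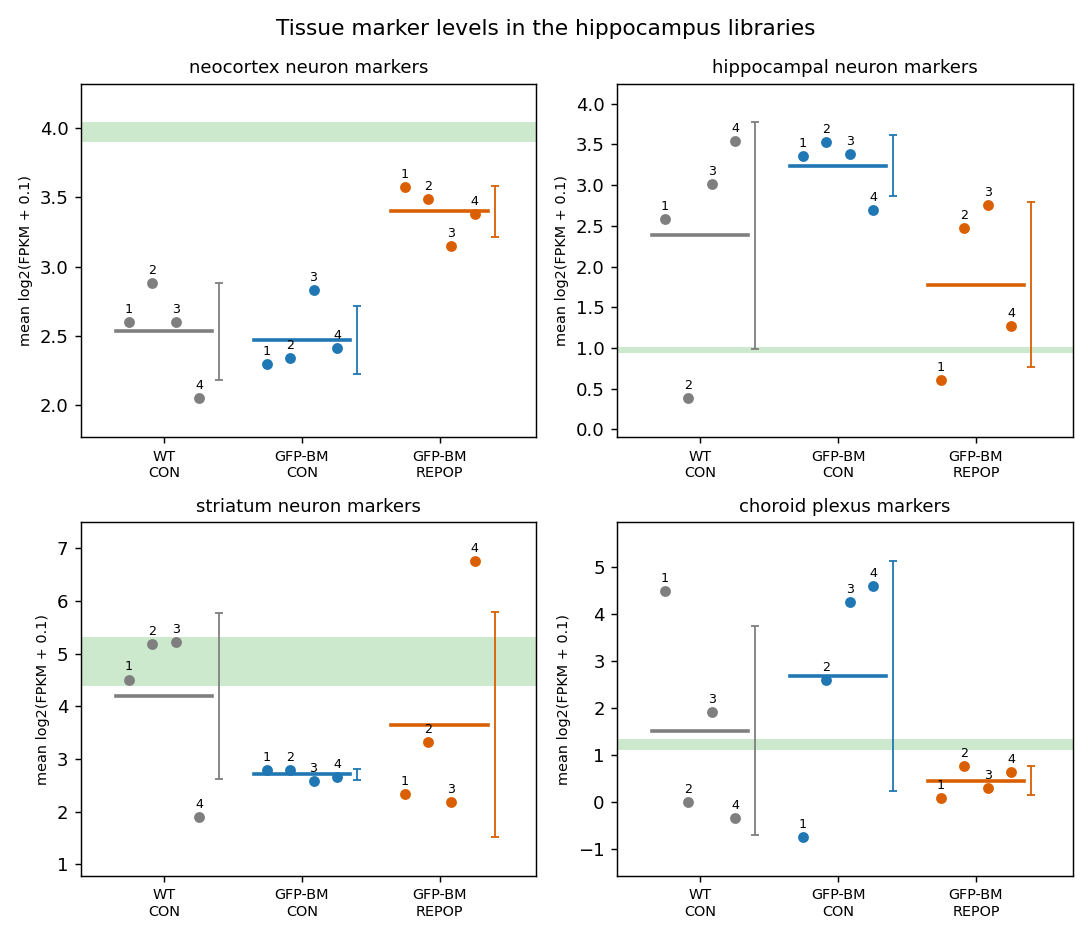
Mean log2(FPKM + 0.1) of 4 marker lists in the 12 hippocampus libraries, with 1 point per library labelled by its replicate number, a horizontal line at the group mean, a bar for the SD (n = 4) and a green band over the range of the 3 WT CON cortex libraries. Neocortex markers do not overlap between GFP-BM CON (2.30 to 2.83) and GFP-BM REPOP (3.15 to 3.57), hippocampal markers are low in GFP-BM REPOP libraries 1 and 4 and WT CON library 2, and choroid plexus markers are high in GFP-BM CON libraries 2, 3 and 4 and WT CON library 1.

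The comparison of the groups gave 4 DEGs in the hippocampus, each with a higher level in GFP-BM REPOP than in GFP-BM CON mice (0.0289% of the genes tested). They included *Plxdc1*, *Il17d* and *Ier5*, which are in none of the lists of myeloid genes used here and each had an adjusted p of 0.0277. At an unadjusted p under 0.05, 878 genes were higher (6.34%) and 694 lower (5.01%). The 4 libraries of one group lay wholly above those of the other for 587 genes higher (4.24%) and 364 lower (2.63%) in GFP-BM REPOP. The median log2 difference over all genes tested was -0.003.

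*Plxdc1* (chromosome 11, 97923237 to 97986669, GRCm38) encodes a plexin domain membrane protein first known from tumour endothelium. It had 5.30, 5.70, 6.29 and 8.10 FPKM in GFP-BM CON and 17.9, 14.1, 14.4 and 13.7 FPKM in GFP-BM REPOP libraries. The lowest repopulated library thus exceeded the highest control, and the WT CON libraries, at 5.53 to 7.80 FPKM, lay with the irradiated controls. The log2 difference was 1.24 (SE 0.16). In WT CON cortex the mean was 18.2 FPKM, above every hippocampus library.

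*Il17d* (chromosome 14, 57524829 to 57543166), a cytokine of the interleukin 17 family, had 18.5, 13.4, 15 and 17.3 FPKM in GFP-BM CON libraries. In GFP-BM REPOP libraries it had 36.2, 34.7, 28.5 and 29.1 FPKM, a log2 difference of 1.00 (SE 0.13). WT CON libraries were between the groups, at 18.7 to 23.9 FPKM. In WT CON cortex the mean was 26.9 FPKM.

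*Ier5* (chromosome 1, 155096367 to 155099636), an immediate early gene, had 18.1, 13.4, 15.7 and 16.9 FPKM in GFP-BM CON and 33, 30.5, 26.8 and 27.1 FPKM in GFP-BM REPOP libraries. Its log2 difference was 0.87 (SE 0.12), and WT CON libraries, at 16.5 to 20.8 FPKM, lay near the irradiated controls. In WT CON cortex the mean was 32.5 FPKM, within the range of the GFP-BM REPOP hippocampus libraries. For each of these 3 genes the 4 GFP-BM REPOP libraries were above the 4 GFP-BM CON libraries.

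The calls rested on few libraries, and the sizes of the differences moved less. The 3 libraries low in hippocampal markers were GFP-BM REPOP libraries 1 and 4 and WT CON library 2. Without them GFP-BM REPOP libraries 2 and 3 were compared with the 4 GFP-BM CON libraries, so tissue content and group size changed together. In that fit 0 genes passed (limma-trend), and the log2 differences were 1.18 for *Plxdc1*, 0.98 for *Il17d* and 0.84 for *Ier5*. With the cortex-minus-hippocampus marker score and the choroid plexus score as covariates, 0 genes passed as well, and the differences were 1.25, 0.78 and 0.79 in the same order. The count was 0 without WT CON library 3, GFP-BM CON library 2, GFP-BM CON library 3 or GFP-BM REPOP library 1, and 1 without GFP-BM CON library 4 or GFP-BM REPOP library 4. Without GFP-BM REPOP library 2 the direction changed, with 4 genes called, 0 higher and 4 lower, and 0 of the 4 DEGs among them, and the 1 gene called without GFP-BM REPOP library 4 was not one of the DEGs either. The count was 637, 438 higher and 199 lower, in a single fit of the 9 groups of the 3 regions. That fit takes a single spread per gene over the 3 regions. The median SD within groups was 0.28 in hippocampus, 0.11 in cortex and 0.22 in thalamus. Its SE for hippocampus thus draws on regions of narrower spread, and the count is given as a description.

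**Figure D2:**
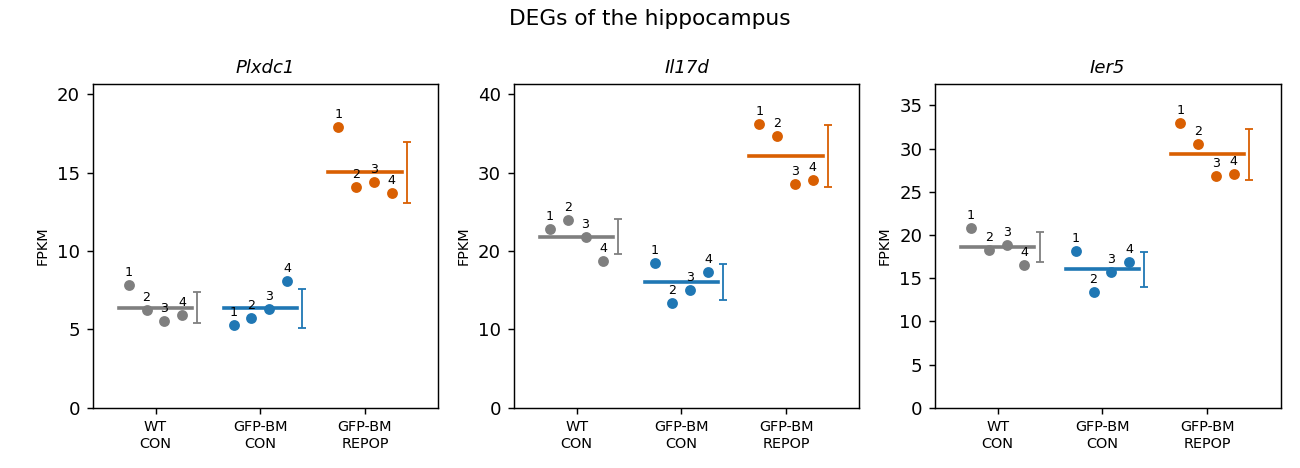
FPKM of the DEGs *Plxdc1*, *Il17d* and *Ier5* in the 12 hippocampus libraries, with 1 point per library labelled by its replicate number, a horizontal line at the group mean and a bar for the SD (n = 4), on axes that start at 0. In each panel the 4 GFP-BM REPOP libraries lie above the 4 GFP-BM CON libraries, and *Il17d* has its WT CON libraries in between.

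Genes below the adjusted threshold were named by size. The 6 largest positive differences among genes at an unadjusted p under 0.01, with no overlap of the groups and a mean of at least 1 FPKM, were *Bglap3*, *Dkkl1*, *Rspo1*, *Cited4*, *Gm12992* and *Ovol2*, with log2 differences of 3.11 down to 1.76. All 6 were at least 1 log2 unit higher in WT CON cortex than in WT CON hippocampus. *Dkkl1*, a dickkopf-like secreted protein, had 4.62, 2.6, 3.82 and 4.82 FPKM in GFP-BM CON and 29.6, 15.9, 11.2 and 12.9 FPKM in GFP-BM REPOP, with 22.7 FPKM as the mean of WT CON cortex (log2 difference 2.04, SE 0.31, adjusted p = 0.0713). *Rspo1*, an activator of Wnt signalling, had 0.732 to 1.73 FPKM in GFP-BM CON and 10.2, 2.53, 3.65 and 4.54 FPKM in GFP-BM REPOP libraries, and GFP-BM REPOP library 1 was the highest for both genes. *Bglap3*, of the osteocalcin family, had 0.203 to 0.616 FPKM in GFP-BM CON and 1.08 to 7.46 FPKM in GFP-BM REPOP (log2 difference 3.11, SE 0.57, adjusted p = 0.0985). *Bglap3* and *Gm12992* reached the filter only with the GFP-BM REPOP libraries, and *Cd109* and *Lhx9*, given next, only with GFP-BM CON, so that each was tested through the group in which it was high.

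Among the genes of the 6 largest negative differences, chosen in the same way, *Cd109*, *Il16* and *Lhx9* were genes with higher levels in WT CON hippocampus than in WT CON cortex. *Il16*, the precursor of a cytokine that also has a neuronal form, had 14.7, 10.4, 8.77 and 10.5 FPKM in GFP-BM CON and 0.775, 2.99, 3.61 and 2.92 FPKM in GFP-BM REPOP libraries (log2 difference -2.23, SE 0.67, adjusted p = 0.271). With both scores as covariates its difference was -0.25, and that of *Cd109*, a membrane co-receptor of TGF-beta signalling, was -0.76 where it had been -2.32. *Trpm3*, a cation channel, and *Ccbe1*, a secreted protein of lymphatic growth, had log2 differences of -2.07 and -2.08, which became -1.25 and -0.62 with the covariates. *Trpm3* was cortex-leaning and *Ccbe1* even between WT CON cortex and hippocampus, by classes defined in the next paragraph. *Trpm3* had 3.03, 7.68, 16.3 and 7.14 FPKM in GFP-BM CON libraries 1 to 4, whose choroid plexus scores were -0.75, 2.59, 4.26 and 4.60. In GFP-BM REPOP libraries it had 1.21 to 1.99 FPKM. The part of choroid plexus in its difference was not tested beyond these values. The remaining gene, listed under the identifier 100862228 with no symbol in the reference used here, had 2.97, 3.70, 5.61 and 1.49 FPKM in GFP-BM CON and 0.511, 1.08, 0.525 and 0.388 FPKM in GFP-BM REPOP libraries. It was higher in WT CON cortex (17.1 FPKM) than in WT CON hippocampus (3.86 FPKM), so its lower level in GFP-BM REPOP went against that gradient. It differed by -2.23 (adjusted p = 0.0985) in hippocampus, by -2.05 in cortex and by -1.84 in thalamus, and was alone among these 12 genes in a difference of more than 1 log2 unit in all 3 regions.

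To set the differences beside tissue content, genes were put in classes by the difference between WT CON cortex and WT CON hippocampus. That difference uses none of the 8 libraries compared. Genes within 0.5 log2 units were called even, those 0.5 to 1 apart leaning, and those further apart cortex-high or hippocampus-high. None of the 372 hippocampus-high genes was higher in GFP-BM REPOP at an unadjusted p under 0.05 and 21% were lower, against 6.34% and 5.01% of all genes. The 1168 hippocampus-leaning genes were higher in 1.46% and lower in 8.65%. The 9331 even genes were higher in 6.64% and lower in 2.46%, and the 1225 cortex-leaning genes were higher in 11.2% and lower in 4.82%.

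The 1756 cortex-high genes were split, with 5.92% higher and 12.9% lower and a median log2 difference of -0.54. This class was also low in GC content, with a median of 42.6% against 51.4% for even genes, and across the genes tested GC content went with the difference at a Pearson r of 0.30, which describes genes that share the same libraries. The level of genes of at least 58.2% GC over genes of at most 41.8% GC, as a difference of median log2 values, was 1.18, 0.77, 0.51 and 1.68 in GFP-BM CON and 1.82, 1.20, 2.26 and 1.06 in GFP-BM REPOP libraries. Its mean was 2.17 in WT CON hippocampus and 0.647 in WT CON cortex, so the classes sort genes by GC content as well as by tissue. Across all genes tested, the difference between the groups went with that of WT CON cortex minus WT CON hippocampus at a Pearson r of -0.23. Among genes of 45 to 55% GC only, 13.8% of 406 cortex-high genes were higher and 5.91% lower, and 0% of 197 hippocampus-high genes were higher and 23.9% lower. The class of cortex-high genes thus had more lower than higher genes over all GC contents and the reverse in the middle of the GC range, whereas the hippocampus-high class was lower in both.

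**Figure D3:**
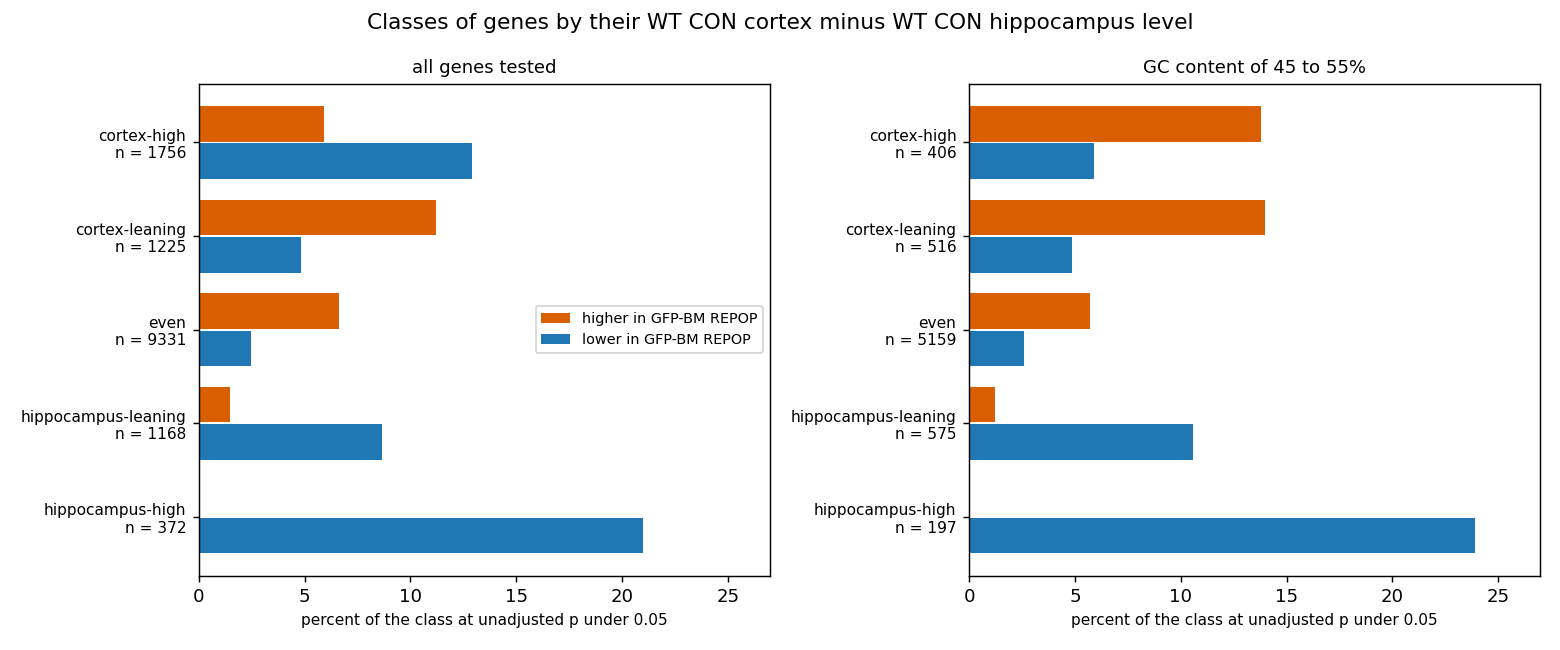
Percent of genes higher (orange) or lower (blue) in GFP-BM REPOP than in GFP-BM CON hippocampus at an unadjusted p under 0.05, in 5 classes by the WT CON cortex minus WT CON hippocampus level, for all genes tested (left) and for genes of 45 to 55% GC (right), with the number of genes beside each class. In both panels no hippocampus-high gene is higher and over 20% are lower, while cortex-high genes are more often lower on the left (12.9%) and more often higher on the right (13.8%).

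Neuron markers were also read gene by gene. Of 17 neocortex neuron markers tested, 10 were higher and 0 lower at an unadjusted p under 0.05, beside 6.34% and 5.01% of all genes. Their median log2 difference was 0.78 against -0.003 for all genes, and 0 were DEGs. *Lamp5*, a membrane protein of synaptic vesicles in cortical neurons, had 26.0, 18.9, 18.7 and 23.3 FPKM in GFP-BM CON and 119, 48.8, 32.7 and 35.6 FPKM in GFP-BM REPOP. It had no overlap between the groups, whereas *Rorb*, the layer 4 nuclear receptor, which reached the filter only with the GFP-BM CON libraries, differed by -0.43. Without the 3 libraries low in hippocampal markers 9 of the 17 passed at an unadjusted p under 0.05, with a median of 0.87.

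Of 15 hippocampal neuron markers, 0 were higher and 6 lower at an unadjusted p under 0.05, beside 6.34% and 5.01% of all genes, with a median log2 difference of -1.28. All 15 had a negative difference. *Homer3*, a postsynaptic scaffold, had 23.2, 23.2, 19.9 and 33.9 FPKM in GFP-BM CON and 4.05, 8.41, 11.0 and 6.32 FPKM in GFP-BM REPOP libraries (log2 difference -1.80, adjusted p = 0.245). *Prox1* had 8.27, 17.0, 14.5 and 5.80 FPKM against 1.04, 3.38, 5.78 and 2.80 FPKM, so that the groups only just did not overlap. Without the 3 libraries low in these markers the median was -0.60 and 3 were lower at the same threshold. The median was 0.38 with both scores as covariates, a fit in which this list is itself part of a covariate.

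The other tissue and cell type lists held fewer genes past the unadjusted threshold. Of 16 choroid plexus markers 4 were lower, with a median of -2.26, beside 5.01% of all genes. As 6 of the 16, among them *Cldn2* and *Col8a1* of the 4 lower ones, would not have reached the filter without the GFP-BM CON libraries, the count is a description. *Kcne2*, a potassium channel subunit of that epithelium, had 0.171 FPKM in GFP-BM CON library 1 and 4.41 to 26.2 FPKM in the other GFP-BM CON libraries, against 0.033 to 1.03 FPKM in GFP-BM REPOP. Of 8 thalamus neuron markers 2 were lower, *Prkcd*, a protein kinase C, and *Lhx9*, a LIM homeobox factor, beside 5.01% of all genes. *Lhx9* reached the filter only with the GFP-BM CON libraries. The medians of 9 striatum markers (1.02) and of 10 markers of ependyma and motile cilia (-0.77) went with 0 genes past the threshold. Of 12 astrocyte markers 2 were lower, beside 5.01% of all genes, the water channel *Aqp4* by -0.86 and the transcription factor *Sox9* by -0.42. Of 12 interneuron markers 3 were higher, beside 6.34% of all genes, the neuropeptides *Vip* (1.15), *Npy* (0.61) and *Sst* (0.56). *Vip* was cortex-high and differed by 0.13 with both scores as covariates. The medians of these lists were -0.18 and 0.33, and members with differences of the opposite sign included *Aldh1l1* (0.22) and *Aldoc* (0.19) of the first and *Gad2* (-0.60) and *Htr3a* (-0.34) of the second.

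Of 32 genes of transport in the primary cilium, the sensory antenna of neurons and glia, *Ift27* was higher by 0.41 at an unadjusted p under 0.05, 0 were lower, and the median was 0.04. That is a smaller share than the 6.34% of all genes that were higher. Of 12 markers of meningeal fibroblasts *Lum* was lower, by -1.08, with a median of -0.22, where 5.01% of all genes were lower. Red cells (4 tested), endothelium (10), oligodendrocytes (10) and neurogenesis with dividing cells (5) had 0 genes past the unadjusted threshold, with medians of 0.58, -0.14, -0.23 and -0.61.

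Immediate early genes are transcribed by neurons within minutes of activity. Of 13 tested, 6 were higher and 0 lower at an unadjusted p under 0.05, beside 6.34% and 5.01% of all genes, and 1 of the 6 was the DEG *Ier5*. The median was 0.69, and all 13 differences were positive. The mean score of the list was 3.21 in GFP-BM CON and 3.88 in GFP-BM REPOP hippocampus. It was 4.15 in WT CON hippocampus and 4.64 in WT CON cortex. *Npas4*, a transcription factor induced by calcium entry, had 5.65, 3.65, 6.54 and 3.89 FPKM in GFP-BM CON and 8.51, 7.24, 9.80 and 15.3 FPKM in GFP-BM REPOP libraries (log2 difference 1.02, SE 0.34, adjusted p = 0.315). *Fosb* had 1.91 to 2.81 FPKM against 3.03 to 6.05 FPKM, also without overlap, while *Arc*, which acts at synapses, overlapped widely, with 32.2 to 53.6 FPKM against 25.4 to 84.4 FPKM. In the comparison of GFP-BM CON with WT CON, which shares the GFP-BM CON libraries, the median of the list was -0.88. The median of the list was 0.57 without the 3 libraries low in hippocampal markers and 0.23, with 1 gene past the threshold, with both scores as covariates, and it was -0.10 in cortex.

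At an unadjusted p under 0.05, 6 of 9 genes of bone marrow-derived myeloid cells were higher in GFP-BM REPOP hippocampus, beside 6.34% of all genes, and 6 of 14 genes of homeostatic microglia were lower, beside 5.01%, and both lists held 0 DEGs. Of 14 genes in the list of bone marrow-derived cells, 9 were tested, 2 (*Ccr1* and *Tlr8*) were under the filter and 3 (*Ccr2*, *Plac8* and *Ly6c2*) were not analysed here. Of the 9, 0 were lower at the unadjusted threshold, and the median log2 difference was 1.20. Only 4 of the 9 would have reached the filter without the GFP-BM REPOP libraries, so that *Ms4a7*, *Ms4a6b*, *Ms4a6c*, *Clec12a* and *Cybb* were tested because of the group in which they were high, and the count is given as a description.

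*Lyz2*, the lysozyme of macrophages, had 13.7, 58.4, 11.9 and 66.2 FPKM in GFP-BM CON libraries 1 to 4. In GFP-BM REPOP libraries it had 41.9, 103, 82.4 and 123 FPKM, a log2 difference of 1.52 (SE 0.57, adjusted p = 0.358). GFP-BM CON libraries 2 and 4 were above GFP-BM REPOP library 1, and the groups overlapped. WT CON libraries had 8.61 to 21.4 FPKM, near GFP-BM CON libraries 1 and 3.

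*Ms4a7*, a tetraspan membrane protein of macrophages, was likewise highest among the controls in GFP-BM CON libraries 2 and 4, with 0.527, 2.5, 0.524 and 3.03 FPKM in GFP-BM CON and 2.29, 5.42, 3.37 and 4.58 FPKM in GFP-BM REPOP (log2 difference 1.52, SE 0.54, adjusted p = 0.340). WT CON libraries had 0.233 to 0.626 FPKM. These were also the highest 2 controls for the score of the whole list, 1.74 and 1.78 against 0.56 and 0.74. The score was 1.83, 2.47, 2.07 and 2.67 in GFP-BM REPOP libraries, all above the controls, and 0.02 to 0.80 in WT CON.

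*Cybb*, the catalytic subunit of the phagocyte NADPH oxidase, had 0.182, 1.11, 0.301 and 0.464 FPKM in GFP-BM CON and 1.03, 1.49, 1.25 and 3.22 FPKM in GFP-BM REPOP libraries, a log2 difference of 1.68 (SE 0.51, adjusted p = 0.276). *Apobec1*, an RNA-editing cytidine deaminase, had 1.24, 1.5, 1.11 and 1.95 FPKM against 1.95, 2.71, 2.01 and 3.38 FPKM (log2 difference 0.75, SE 0.26, adjusted p = 0.333). *Apobec1* alone of the 9 tested had no overlap at all, and only just. *Ms4a6c* and *Ms4a6b*, of the same family as *Ms4a7*, differed by 1.20 (SE 0.41) and 0.63 (SE 0.29). *Clec12a*, an inhibitory lectin receptor, differed by 1.55 (SE 0.71), and *Tmem176a* and *Tmem176b*, overlapping genes of ion channel proteins of antigen-presenting cells whose reads may be split between them, by 0.53 and 0.10. *Ccr1*, a chemokine receptor, had 0.047 to 0.267 FPKM in GFP-BM CON and 0.345 to 0.644 FPKM in GFP-BM REPOP, with no test.

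Of 15 genes of homeostatic microglia 14 were tested, 0 were higher at the unadjusted threshold, and the median log2 difference was -0.43. *Gpr84* among them reached the filter only with the GFP-BM CON libraries. *Slc2a5* (chromosome 4, 150119344 to 150144168), the fructose transporter of microglia, had 2.05, 1.49, 1.42 and 2.03 FPKM in GFP-BM CON libraries. In GFP-BM REPOP libraries it had 0.678, 1.11, 0.540 and 0.473 FPKM, a log2 difference of -1.25 (SE 0.25, adjusted p = 0.108). The groups did not overlap, and WT CON libraries, at 2.15 to 2.45 FPKM, were above both.

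*Lag3*, a receptor for class II histocompatibility proteins, had 1.85, 1.70, 2.30 and 2.6 FPKM in GFP-BM CON and 1.13, 1.19, 1.32 and 0.802 FPKM in GFP-BM REPOP libraries (log2 difference -0.87, SE 0.24, adjusted p = 0.230). *Siglech*, a sialic acid-binding lectin, had 3.68, 3.48, 4.78 and 3.21 FPKM against 2.49, 2.95, 1.63 and 1.42 FPKM (log2 difference -0.85, SE 0.27, adjusted p = 0.299). *Crybb1*, a crystallin that microglia transcribe, had 4.40, 2.02, 2.51 and 3.14 FPKM against 1.96, 1.77, 1.76 and 0.704 FPKM (log2 difference -0.95, SE 0.31, adjusted p = 0.315). None of the 3 overlapped between the groups, and for *Lag3* and *Crybb1* the WT CON libraries were above every library of both.

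The purinergic receptor *P2ry12* had 6.41, 7.16, 10.9 and 4.16 FPKM in GFP-BM CON and 2.10, 5.56, 1.17 and 2.81 FPKM in GFP-BM REPOP libraries, a log2 difference of -1.40 (SE 0.48, adjusted p = 0.325). Unlike *Lag3* and *Crybb1*, it was low in WT CON as well, at 1.09 to 4.43 FPKM. *P2ry13*, its neighbour on chromosome 3, differed by -0.45. The rest of the list did not pass the unadjusted threshold, among them *Tmem119* (-0.35), the fractalkine receptor *Cx3cr1* (-0.07), the transcription factor *Sall1* (0.08) and *Fcrls* (0.25). *Sall1* had 11 FPKM in GFP-BM REPOP library 1 and 3.47 to 4.91 FPKM in the others of that group, against 4.03 to 6.32 FPKM in GFP-BM CON. Its difference was -1.55 with both scores as covariates, -0.64 in cortex and -0.08 in thalamus. The score of the list was 2.52, 2.44, 2.42 and 2.59 in GFP-BM CON and 1.92, 2.36, 1.90 and 1.68 in GFP-BM REPOP, with library 2 of the latter nearest to the controls.

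Of 13 genes tested that all myeloid cells of the brain share, 0 were higher and 1 lower at an unadjusted p under 0.05. Over all genes 6.34% were higher and 5.01% lower, and the median log2 difference of the list was 0.13. *Csf1r* itself had 17.0, 16.8, 16.0 and 22.2 FPKM in GFP-BM CON and 18, 19.0, 21.5 and 20.0 FPKM in GFP-BM REPOP libraries, a log2 difference of 0.13 (SE 0.13). The gene that was lower was *Itgam* (chromosome 7, 128062640 to 128118491), which encodes the integrin CD11b, at 5.05, 4.98, 5.11 and 5.26 FPKM in GFP-BM CON and 2.86, 3.48, 3.32 and 2.93 FPKM in GFP-BM REPOP. WT CON libraries, at 5.04 to 5.28 FPKM, were level with GFP-BM CON, and the log2 difference of -0.68 (SE 0.12) had an adjusted p of 0.0971. Its difference was -0.57 without the 3 libraries low in hippocampal markers and -0.58 with both scores as covariates.

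**Figure D4:**
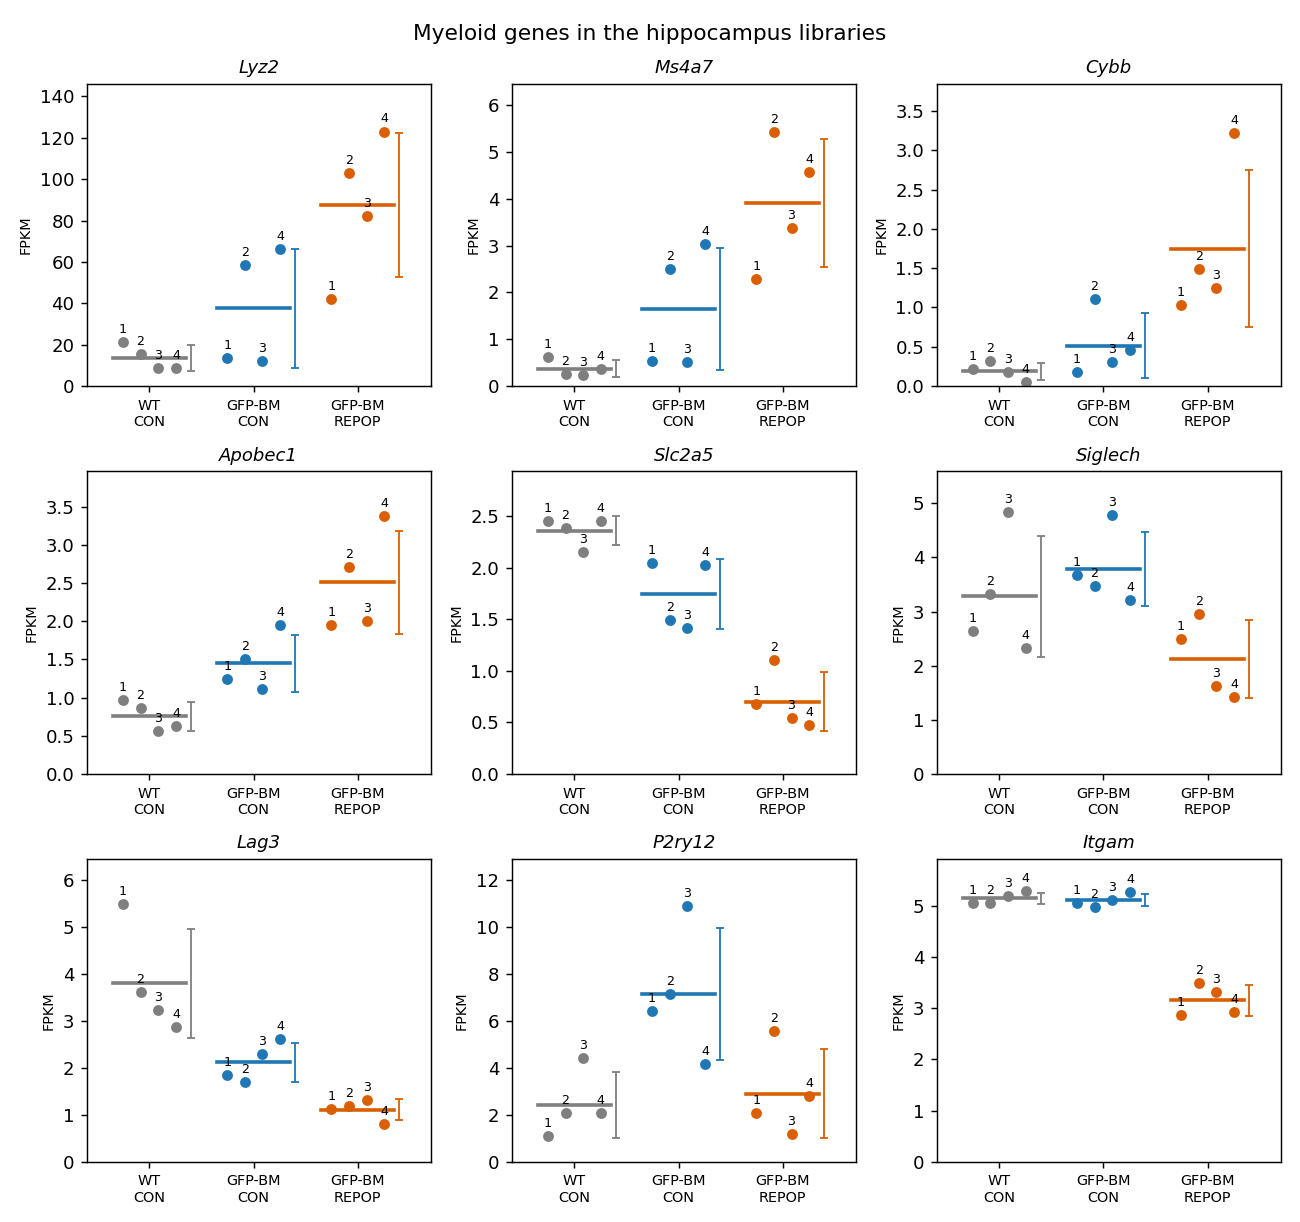
FPKM of 9 myeloid genes in the 12 hippocampus libraries, with 1 point per library labelled by its replicate number, a horizontal line at the group mean and a bar for the SD (n = 4), on axes that start at 0. *Lyz2* and *Ms4a7* are high in GFP-BM CON libraries 2 and 4, *Slc2a5*, *Siglech* and *Lag3* do not overlap between GFP-BM CON and GFP-BM REPOP, and *Itgam* is near 5 FPKM in 8 libraries and at 2.86 to 3.48 FPKM in GFP-BM REPOP.

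The myeloid values were set beside tissue content. GFP-BM CON libraries 2 and 4, the highest controls in *Lyz2* and *Ms4a7*, had choroid plexus scores of 2.59 and 4.60, against -0.75 and 4.26 in libraries 1 and 3. They were also the highest 2 controls for the scores of oligodendrocytes (6.53 and 7.01 against 5.57 and 5.86), ependyma and motile cilia (2.08 and 3.86 against -0.05 and 1.57), meningeal fibroblasts (2.33 and 2.15 against 0.79 and 1.80) and border macrophages (0.47 and 0.71 against -0.45 and -0.20). The paper also reports donor-derived myeloid cells in GFP-BM CON brains. In GFP-BM CON minus WT CON hippocampus the list of bone marrow-derived cells had a median log2 difference of 0.95. The part of donor cells and of the tissues named above in the myeloid values was not tested. The fit without the 3 libraries low in hippocampal markers keeps only libraries 2 and 3 of GFP-BM REPOP. There the list of bone marrow-derived cells had a median of 1.07 with 3 genes higher. That of homeostatic microglia had a median of -0.20 with 3 genes lower. With both scores as covariates the medians were 1.04 and -0.55, with 4 genes each. *Slc2a5* had log2 differences of -1.05 and -1.27 in these fits, and *Lyz2* of 1.70 and 1.89. Once levels were corrected for GC content and length, the medians were 1.36 and -0.37. With array quality weights the list of bone marrow-derived cells had a median of 0.77 with 2 genes higher, and that of homeostatic microglia -0.51 with 7 genes lower. In a single fit of the 9 groups of the 3 regions, 637 genes were called. Among them were 5 of the 9 genes of bone marrow-derived cells, *Apobec1*, *Lyz2*, *Cybb*, *Ms4a6c* and *Ms4a7*. Of these, *Cybb*, *Ms4a6c* and *Ms4a7* reached the filter only with the GFP-BM REPOP libraries. Of the 14 genes of homeostatic microglia 5 were called, *Slc2a5*, *Lag3*, *Siglech*, *Crybb1* and *P2ry13*. This fit shares its spread with cortex and thalamus, where the spread was narrower.

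Promoter sequence is shown for the gene with the lowest p in each of the 3 myeloid lists, as an example of the sequence before their starts. Each run is the 250 bases before the RefSeq transcript start (GRCm38.p6), 5′ to 3′ on the strand of the gene, with capitals for matches on either strand to GAGGAA, a core of sites for the myeloid factor PU.1, or to a motif bound by RFX factors, GTTGCC. The motifs cannot overlap each other. The positions are chrX:9469325-9469574 on the minus strand for *Cybb*, and chr7:128062390-128062639 and chr4:150119094-150119343 on the plus strand for *Itgam* and *Slc2a5*.
Cybb: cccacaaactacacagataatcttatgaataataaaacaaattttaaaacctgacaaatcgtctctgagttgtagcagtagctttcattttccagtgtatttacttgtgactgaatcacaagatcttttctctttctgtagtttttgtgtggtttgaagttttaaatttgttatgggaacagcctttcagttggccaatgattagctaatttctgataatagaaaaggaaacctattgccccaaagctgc
Itgam: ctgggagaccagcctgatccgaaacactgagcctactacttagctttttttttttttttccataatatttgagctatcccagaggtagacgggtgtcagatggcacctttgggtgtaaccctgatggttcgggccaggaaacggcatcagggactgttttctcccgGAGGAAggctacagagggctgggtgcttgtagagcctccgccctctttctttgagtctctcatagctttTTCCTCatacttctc
Slc2a5: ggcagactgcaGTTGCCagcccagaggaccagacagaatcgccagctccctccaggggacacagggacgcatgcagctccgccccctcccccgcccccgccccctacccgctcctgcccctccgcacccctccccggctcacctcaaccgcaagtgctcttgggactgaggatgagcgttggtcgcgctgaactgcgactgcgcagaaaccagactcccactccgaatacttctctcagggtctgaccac
*Itgam* has 2 matches to the PU.1 core and 0 to the RFX motif, *Slc2a5* 0 and 1, and *Cybb* 0 of either in this window. Of all 32851 RefSeq mouse promoters 23.3% hold the PU.1 core and 10.4% the RFX motif. The PU.1 core was in 8 of 20 promoters of 14 genes of the list of bone marrow-derived cells (40.0%), 8 of 12 of 10 pan-myeloid genes (66.7%), 2 of 12 of 10 genes of homeostatic microglia (16.7%) and 2 of 29 of primary cilium genes (6.9%). The RFX motif was in 8 of 29 of the last (27.6%) and in 1, 0 and 1 promoters of the myeloid lists. A match is a run of letters and not a binding site, and the lists were chosen with the expression results known.

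Smaller myeloid lists were also measured. Of 6 border macrophage genes *Pf4*, a chemokine, was higher by 1.19 at an unadjusted p under 0.05, with a median of 0.47 over the list, where 6.34% of all genes were higher. Of the 6 differences 4 were positive and 2 negative, the lowest that of *Cd209f* (-1.27). *Mrc1* and *Cbr2* of the 6 would not have reached the filter without the GFP-BM REPOP libraries, nor *Mrc1*, *Folr2* and *Cd209f* without the GFP-BM CON libraries. *Cbr2* had 29.1 FPKM in GFP-BM REPOP library 1 and 0.417 to 4.76 FPKM in the others of that group, and 25.3 FPKM in WT CON library 2. Of 10 genes of disease-associated microglia *Lpl*, lipoprotein lipase, was lower by -1.38, where 5.01% of all genes were lower, with a list median of 0.05. With both scores as covariates *Lpl* differed by -0.79. Of the 10 differences 5 were negative and 5 positive, among the latter those of *Clec7a* (1.02) and *Spp1* (0.80). *Clec7a* would not have reached the filter without the GFP-BM REPOP or without the GFP-BM CON libraries. Of 7 antigen presentation genes 0 passed, with a median of -0.17.

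The same comparison in cortex and thalamus was set beside that in hippocampus. The median log2 difference of the genes of bone marrow-derived cells was 1.20 in hippocampus, 1.48 in cortex and 1.29 in thalamus, and that of homeostatic microglia -0.43, -0.47 and -0.21. *Lyz2* differed by 1.52 (SE 0.57), 2.27 (SE 0.19) and 1.72 (SE 0.29), and *Slc2a5* by -1.25 (SE 0.25), -1.10 (SE 0.16) and -0.90 (SE 0.23). *Ms4a7* differed by 1.52 (SE 0.54), 2.47 (SE 0.28) and 2.28 (SE 0.39). The difference between regions was tested as a contrast of contrasts with the animal as a random block, and none of the 23 genes of both lists passed, with lowest adjusted p values of 0.497 (*Apobec1*) against cortex and 0.740 (*P2ry13*) against thalamus. At an unadjusted p under 0.05, 1 of the 23 passed against cortex, *Apobec1* (-0.73, SE 0.31), and 0 against thalamus. *Itgam*, which differed by -0.25 in cortex and -0.21 in thalamus, had a regional difference of -0.43 (SE 0.15, adjusted p = 0.318) and -0.47 (SE 0.16, adjusted p = 0.335).

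**Figure D5:**
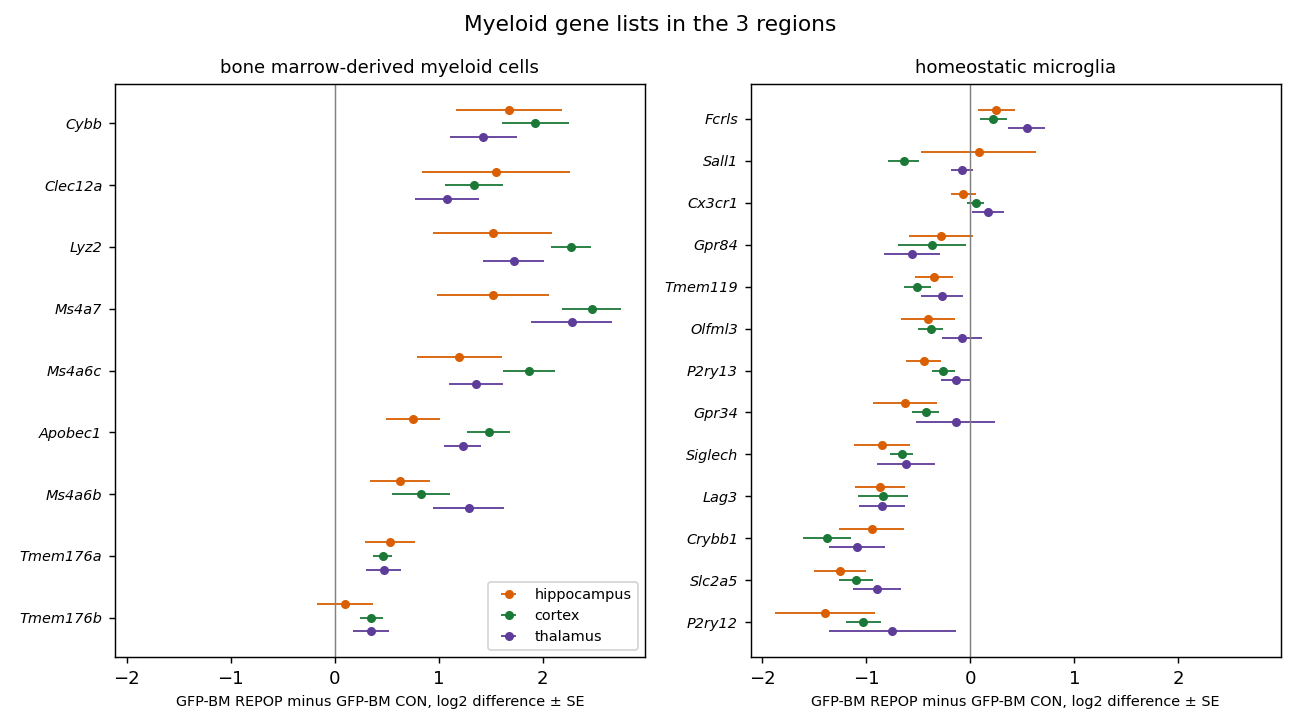
Log2 difference of GFP-BM REPOP minus GFP-BM CON with its SE for tested genes of bone marrow-derived myeloid cells (left, 9 genes) and homeostatic microglia (right, 13 of 14 genes) in hippocampus, cortex and thalamus. Differences of the left list lie above 0 in all 3 regions, with mostly wider errors in hippocampus, and *Slc2a5* is below 0 in each region, at -1.25, -1.10 and -0.90.

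Outside the myeloid lists, genes passed in the contrasts between regions. That fit also takes a single spread per gene over the 3 regions, whose median SDs were 0.28 in hippocampus, 0.11 in cortex and 0.22 in thalamus. Its counts are therefore given as a description. Against cortex 28 genes passed (0.202% of those tested), 24 with the higher difference in hippocampus, and against thalamus 4 passed (0.0289%), all of them higher in hippocampus. Of the 28, 12 were cortex-high, 8 cortex-leaning, 5 even and 3 hippocampus-high. *Plxdc1*, *Il17d* and *Ier5* were among them, and their differences in cortex were 0.11, 0.08 and -0.11. The regional differences of largest size were those of *Frem3* (-2.54, SE 0.54, adjusted p = 0.0430), an extracellular matrix protein, *Map3k15* (-2.28, SE 0.47, adjusted p = 0.0386), a protein kinase, and *Cited4* (1.88, SE 0.39, adjusted p = 0.0421), a transcriptional co-activator. *Frem3* and *Map3k15* reached the filter only with the GFP-BM CON libraries, the group in which they were higher, so their values are given as a description. *Cited4* had 2.62, 1.20, 1.42 and 1.58 FPKM in GFP-BM CON and 10.3, 6.33, 4.14 and 7.25 FPKM in GFP-BM REPOP hippocampus, against a mean of 8.28 FPKM in WT CON cortex. Against thalamus the genes were *Sowahb* (1.77), *Plxdc1* (1.18), *Il17d* (1.00) and *Gm9899* (0.99).

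Single libraries moved these counts. Against cortex the count was 3 without GFP-BM CON hippocampus library 2, 10 without GFP-BM REPOP hippocampus library 1, 11 without GFP-BM CON hippocampus library 4 and 84 without GFP-BM REPOP hippocampus library 3, and 4 to 13 without any 1 of the 8 cortex libraries compared. Against thalamus it was 44 without GFP-BM REPOP hippocampus library 3, 18 without GFP-BM REPOP hippocampus library 4, 8 without GFP-BM CON hippocampus library 1, and 1 or 2 without GFP-BM CON hippocampus library 2 or 4, GFP-BM CON thalamus library 2 or GFP-BM REPOP thalamus library 1, 2 or 3.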

How the data were processed

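RNA of 34 libraries, each from 1 brain region of 1 mouse, was sequenced by the authors in pairs of 150 bases, aligned with STAR and counted per gene with Rsubread. The submitters' processing notes name the build mm10. The authors deposited FPKM, which their methods call RPKM. Groups follow the labels, and the members and lists were chosen with earlier results of these data known.

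Genes with at least 1 FPKM in at least 3 of 12 hippocampus libraries (14167) were kept, less 315 of other biotypes, and log2(FPKM + 0.1) was compared in a fit of the 3 hippocampus groups with limma-trend (limma 3.58.1, R 4.3.3), two-sided, with Benjamini-Hochberg adjustment. Differences between regions were fitted over the 34 libraries, in which the animal entered as a random term (correlation -0.04). Coordinates and promoters came from RefSeq (GRCm38.p6), and 307 genes tested had no match. Whole reads were recovered from the FPKM steps (100.0% of values within 0.02 reads of a whole number), with 17085018 to 26010509 per library. These totals cover reads assigned to genes. Scripts were tested on simulated data.

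Genes were named if they were DEGs, among the 6 largest positive or negative differences at an unadjusted p under 0.01 without overlap and with a mean of at least 1 FPKM over the 8 libraries, the most extreme members of a list, a member of the lists of bone marrow-derived cells or homeostatic microglia, or among the 3 largest regional differences. *Lamp5*, *Rorb*, *Ttr*, *Csf1r*, *Itgam*, *Prox1*, *Homer3* and the further members of lists given with values were named after their values were seen, and so were the genes of the contrast with thalamus. Values of some genes that the rule names are not reported here. Replicate numbers do not pair the samples. Which library was run on which of the NovaSeq and HiSeq instruments is not given in the sources used here. Each library of a region came from a different mouse, so p values within a region measure the spread between mice and their dissections. Across regions the same mice gave several libraries, and the animal entered the fit of regional differences as a random term.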

Additional observations from a re-analysis of the deposited data

Results flagged for a closer look

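In 8 of 213 groups of 4 hippocampus libraries, 1 library lay far from the other 3, where chance gives about 1 in 20. *Crybb1* had 0.704 FPKM in GFP-BM REPOP library 4 (others 1.76 to 1.96), *Gm12992* 0.114 FPKM in GFP-BM CON library 1 (others 0.401 to 0.444), and *Ift27* 15.9 FPKM in GFP-BM REPOP library 2 (others 11.1 to 11.7). In GFP-BM REPOP library 1, *Il16* had 0.775 FPKM (others 2.92 to 3.61), *Sowahb* 8.64 FPKM (others 3.95 to 4.03), and the oligodendrocyte score was 4.64 (others 6.25 to 6.5). The endothelium score was 3.59 in GFP-BM CON library 4 (others 3.44 to 3.46), and the score of neurogenesis and dividing cells was -0.25 in GFP-BM CON library 1 (others 0.54 to 0.63).

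The difference of GFP-BM REPOP from GFP-BM CON was itself tested between regions, in a fit with a single spread per gene over the 3 regions. Hippocampus and cortex differed for 28 genes, among them *Cited4* (1.88), *Frem3* (-2.54), *Ier5* (0.99), *Il17d* (0.92), *Map3k15* (-2.28), *Plxdc1* (1.14) and *Sowahb* (1.64), each as hippocampus minus cortex on the log2 scale. Hippocampus and thalamus differed for 4 genes, among them *Il17d* (1.00), *Plxdc1* (1.18) and *Sowahb* (1.77).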

How the results depend on the processing

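The count of 4 DEGs was 8 after quantile normalization, 26 (13 higher, 13 lower) with only the groups compared in the fit, 637 (438 higher, 199 lower) with all 9 groups in one fit and 1228 (683 higher, 545 lower) with array quality weights. It was 0 with eBayes without trend, 0 with voom on the recovered reads (1662 at an unadjusted p under 0.05), 0 with the cortex score, 1 with the choroid plexus score, 0 with both scores as covariates, and 1 after correction for GC content and length. It was also 0 without the 3 libraries low in hippocampal markers, which include libraries 1 and 4 of the 4 GFP-BM REPOP libraries. That alternative was chosen after seeing the data, like the restriction to middle GC content and to genes with a GC content. Leaving out single libraries gave 0 to 6, and the 4 calls without GFP-BM REPOP library 2 were all lower and held 0 of the 4 DEGs. With the replicate number as a block the count was 0 (1181 at an unadjusted p under 0.05). Same-numbered GFP-BM REPOP and GFP-BM CON libraries, from different mice, correlated at -0.08, -0.07, -0.43 and -0.36, so the numbers give no pairing.

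Genes that differed between hippocampus and cortex numbered 3 to 84, and between hippocampus and thalamus 1 to 44, with single libraries left out. The latter count was 7 with a pseudocount of 1. Other pseudocounts, filters on low values, all biotypes, median-ratio scaling and the fit without the animal kept the counts within 1.5 times. Of the log2 differences of named genes under alternatives, 1160 were of the same size and call, 25 moved, 37 lost and 2 gained significance, and no called value changed sign. Of list medians 342 were the same and 15 moved, and of class medians 12 and 3. Tests with edgeR and DESeq2 were not run, since the deposited unit is FPKM. Tissue content and group cannot be told apart with 4 libraries each, and the cause of the changed counts was not tested.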
